A study of Homo sapiens with 5 samples.

Results

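At 4 days post injection (dpi), SW480 cells taken from zebrafish xenografts differed widely in HES1 RNA, and the cells richest in it are compared here with the cells in which no HES1 molecule was counted. SW480 is an established colorectal cancer line derived from a primary tumor. The cells expressed GFP and were injected into zebrafish. They were dissociated from a pool of about 100 tumors before single cells were sorted by FACS into 384-well plates for SORT-seq. RNA molecules were counted by unique molecular identifiers (UMIs) on 3 plates of 1 dpi and 2 plates of 4 dpi, the latter being libraries 10 and 11. A cell was a well with more than 2000 genes and under 25% of its UMIs on mitochondrially encoded genes. The groups were chosen by HES1 itself: within each plate, cells were ranked by HES1 UMIs per 10,000 UMIs, the top 20% were taken as HES1-high, and cells with 0 HES1 UMIs as HES1-zero. Of 822 cells in the series and 291 at 4 dpi, 58 were HES1-high (26 in plate 10 and 32 in plate 11) and 155 were HES1-zero (69 and 86). The remaining 78 cells (36 and 42), with some HES1 but below the top 20%, are called middle cells.

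HES1 is a basic helix-loop-helix repressor and a direct target of Notch signaling, in which a ligand on a neighboring cell releases the intracellular domain of the receptor to join RBPJ on DNA. In the gut epithelium, HES1 holds back the secretory fate and favors absorptive cells. HES1 also represses its own gene, so its RNA can oscillate, and growth factors and serum can induce it within the same window as immediate early genes.

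The cells carried the markers of an epithelial line. Over all 4 dpi cells there were 14675 UMIs of KRT8, 11114 of EPCAM and 6545 of KRT18. Of 26 markers of leukocytes, endothelium, fibroblasts and red cells, 10 were at 0 or not listed in the files, the most abundant was COL1A1 with 93 UMIs, and PTPRC had 6. Summed over these markers, HES1-high and HES1-zero cells held 18.97 and 21.5 CPM (UMIs scaled to a common total) in plate 10 and 12.4 and 13.1 in plate 11, so both groups were near 0 for them. Wells were filled with 1 cell each and no doublet caller was run. All 384 well names are shared by the 5 plates by design and do not mark shared cells.

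HES1 was sparse at this time. A HES1 UMI was found in 47.3% of the cells of plate 10 and 46.2% of those of plate 11, with 390 and 286 HES1 UMIs in all. HES1-high cells of plate 10 had between 1 and 72 HES1 UMIs (median 6.5), at a rate from 1.37 to 18.9 per 10,000 (median 2.48). In plate 11 they had between 1 and 24 (median 4), at a rate from 1.58 to 17.4 (median 2.46). The groups meet at the threshold: the last 3 cells inside had rates of 1.38, 1.38 and 1.37 in plate 10, next to 1.34, 1.30 and 1.28 for the first 3 outside, and the corresponding rates in plate 11 were 1.66, 1.59 and 1.58 against 1.56, 1.53 and 1.53. With so few molecules, a HES1-zero cell is a cell in which HES1 was not detected at its depth, not a cell shown to lack it.

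**Figure D1:**
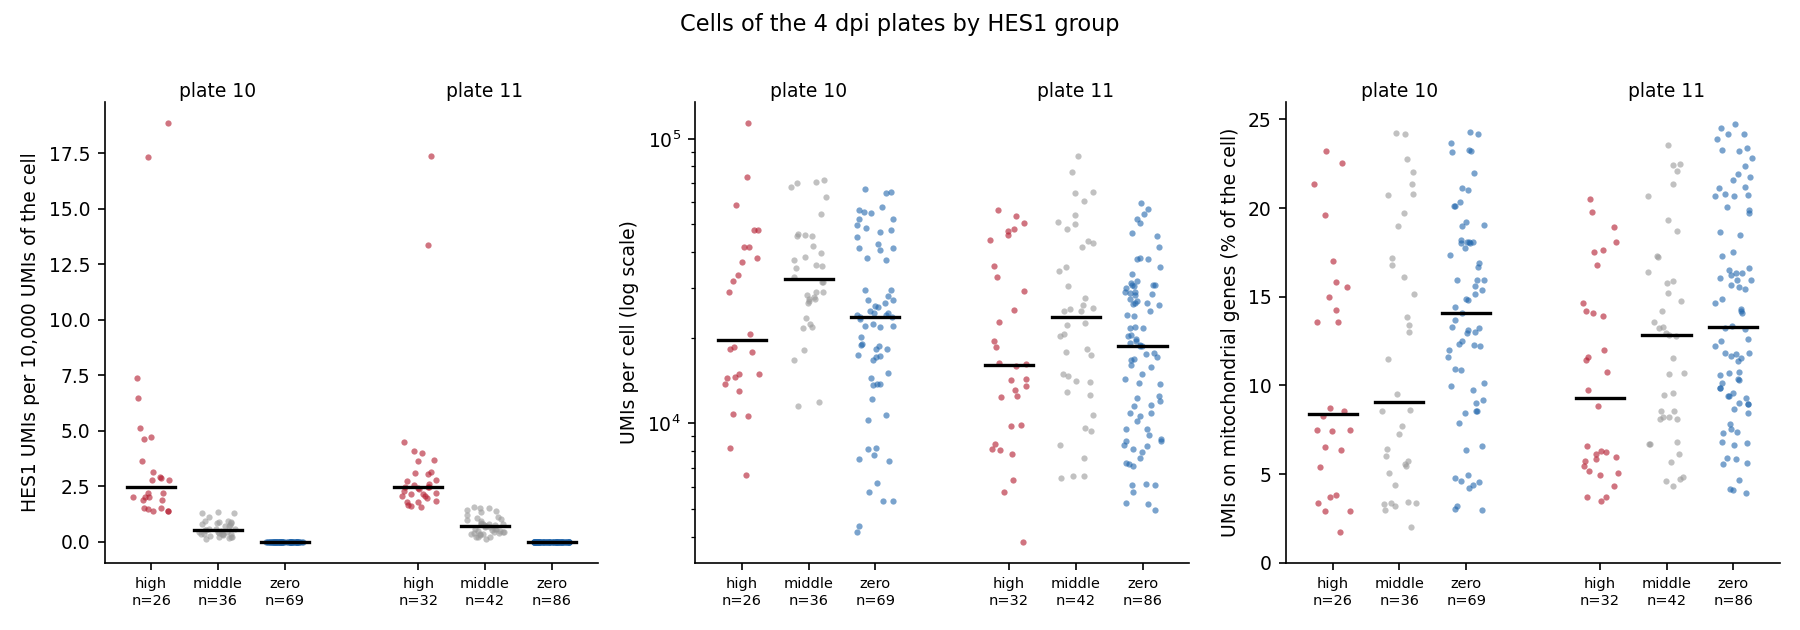
Each point is a cell of the 4 dpi plates, by plate and HES1 group, and black lines are medians; the panels give HES1 UMIs per 10,000 UMIs, UMIs per cell on a log scale, and the percentage of UMIs on mitochondrially encoded genes. The median depth of HES1-high cells was below that of HES1-zero cells (19566.5 and 16052.5 against 23596 and 18763.5 UMIs), although the deepest cell of plate 10 was HES1-high (113907 UMIs), and their mitochondrial share was lower (medians of 8.41% and 9.28% against 14.1% and 13.3%).

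Depth and composition moved with the groups. The median depth of a HES1-high cell was 19566.5 UMIs in plate 10 and 16052.5 in plate 11, below the 23596 and 18763.5 of HES1-zero cells, while middle cells had the highest medians, 32052 and 23617. The deepest cells did not follow this order in plate 10: the deepest HES1-high and HES1-zero cells held 113907 and 66404 UMIs in plate 10 and 56267 and 59602 in plate 11, and deep cells weigh most in the sums tested below. The part of the rule in this order was not tested. The median mitochondrial share was 8.41% and 9.28% in HES1-high cells and 14.1% and 13.3% in HES1-zero cells. When each HES1-high cell was paired with the HES1-zero cell of its plate nearest in depth, the paired HES1-zero cells had medians of 19259.5 and 15900.5 UMIs and mitochondrial shares of 12.8% and 13.7%, so the medians of depth were matched and the mitochondrial gap remained. The deepest HES1-high cells of plate 10 had no HES1-zero cell of their depth. The part of the mitochondrial share in the results was not tested.

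UMIs were summed per plate and group, and the groups were compared within plates with edgeR's quasi-likelihood test. The 4 sums held 790714 and 726102 UMIs for HES1-high cells and 1859597 and 1834768 for HES1-zero cells. Of 10045 genes tested, 2796 (27.8%) passed an adjusted p of 0.05 (Benjamini-Hochberg), 1568 of them higher in HES1-high cells (15.6%) and 1228 lower (12.2%). Of the 2796, 2774 had the same sign in both plates, but the fit that called them used these same plates, so this count is not a separate replication. The median log2 ratio of HES1-high over HES1-zero was -0.02 over all genes tested. With library size alone in place of TMM factors this median moved to 0.12 and the calls to 2063 higher and 797 lower, so falls are given relative to the TMM scale. DESeq2 called 509 of the 5371 genes it tested, 325 higher and 184 lower, and thinning every cell to 5000 UMIs left 694 calls of 4901. Both plates may come from the same pool of tumors, in which case the p-values cover technical spread alone, and with 2 plates an exact two-sided permutation test within plates cannot go below 0.5. The fit leaves 1 residual degree of freedom per gene, so its spread is pooled over genes. The standard errors and p-values below therefore do not show how far apart the plates of a single gene lie.

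The genes that rose most included transcription factors that answer to growth factors or to the time of day, metallothioneins, and a few genes carried by very few cells. EGR2 had the largest ratio of the 12, and EGR1 was ninth by ratio but among the most abundant. EGR1, a zinc-finger factor induced within minutes by growth factors and stress, had 1955 CPM in HES1-high cells against 129.6 in HES1-zero cells in plate 10 and 1788 against 213 in plate 11. Its log2 ratio was 3.34 (standard error 0.13, adjusted p = 1.4e-131). Middle cells, at 288 and 265, lay between the groups, nearer to HES1-zero cells. A few cells held much of this RNA, with 83.4% and 69.9% of the EGR1 UMIs of the HES1-high sums in 3 cells of each plate. EGR1 was nonetheless detected in 69.2% and 78.1% of HES1-high cells against 47.8% and 47.7% of HES1-zero cells. Its relative EGR2 had 63.2 and 105 CPM against 2.69 and 2.18, with the log2 ratio at 4.89 (standard error 0.41, adjusted p = 1.4e-29). That value rests on 5 and 4 UMIs in the HES1-zero sums.

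**Figure D2:**
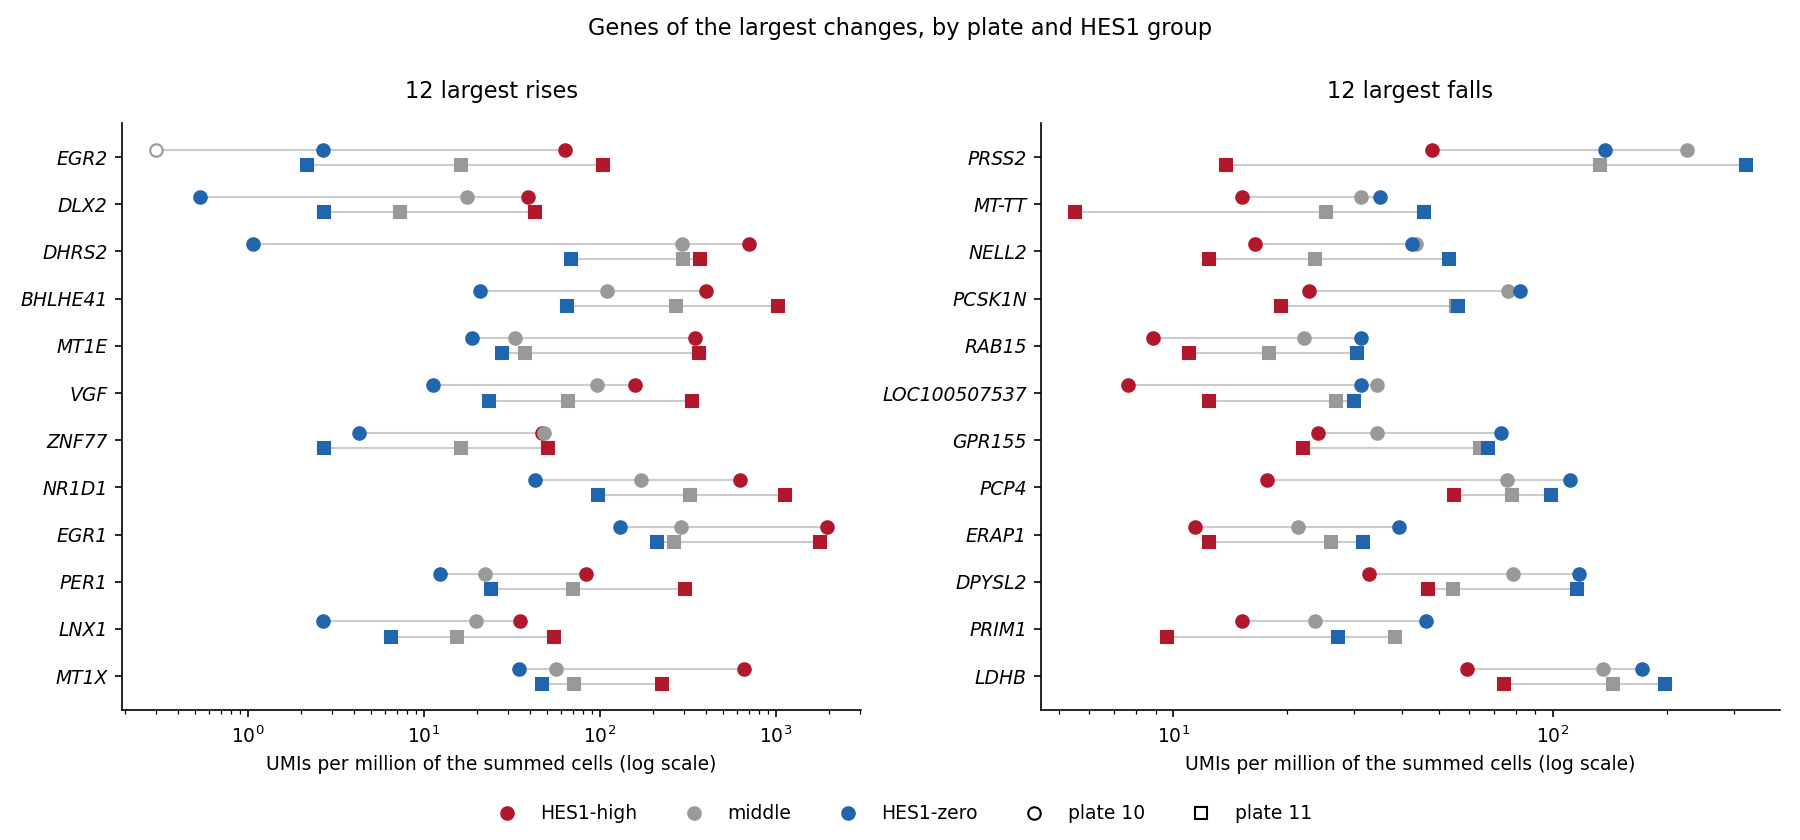
Each row is a gene among the 12 largest rises (left) or falls (right), with CPM of the summed cells on a log scale; circles are plate 10 and squares plate 11, and color gives the HES1 group. In each of these genes HES1-high cells lie on the same side of HES1-zero cells in both plates, which the rule that chose them required, and the open circle of EGR2 stands for 0 UMIs.

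Clock-controlled repressors were the next group. BHLHE41 (DEC2), a repressor of the circadian clock and a relative of the HES proteins, had 401 CPM in HES1-high cells of plate 10, 109 in middle cells and 20.97 in HES1-zero cells, and 1032, 271 and 65.4 in plate 11. Its levels fell in the same order in both plates. The log2 ratio was 3.94 (standard error 0.17, adjusted p = 6.8e-107). NR1D1 (REV-ERB alpha), a nuclear receptor that represses clock genes, showed the same order with 626, 173 and 43.02 in plate 10 and 1133, 326 and 97.6 in plate 11, which gave 3.54 on the log2 scale (standard error 0.16, adjusted p = 7.8e-105). PER1, a period repressor that is also induced acutely by cAMP and glucocorticoids, had 83.5 and 304 CPM against 12.4 and 23.98 (log2 ratio 3.17, standard error 0.25, adjusted p = 4.8e-34).

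Metallothioneins, small proteins that bind zinc and copper, were high in a handful of HES1-high cells. MT1E had 345 and 368 CPM against 18.8 and 27.8 (log2 ratio 3.80, standard error 0.20, adjusted p = 5e-73), and MT1X had 658 and 224 against 34.95 and 46.9 (log2 ratio 3.14, standard error 0.19, adjusted p = 2.1e-59). The MT1X ratios of the plates lay further apart than this pooled standard error. A single cell per plate held 78.4% and 84.6% of the MT1E UMIs of the HES1-high sums, and MT1E was detected in 30.8% and 37.5% of HES1-high cells against 24.6% and 30.2% of HES1-zero cells. Without the HES1-high cell of each plate that led the most rises, an alternative added after the data were seen, the log2 ratios were 1.49 for MT1E and 1.58 for MT1X.

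Of the other large rises, VGF, a secreted neuropeptide precursor induced by growth factors, had 159 and 336 CPM against 11.3 and 23.4 (log2 ratio 3.68, standard error 0.23, adjusted p = 2.5e-53) and was detected in 13 of 26 and 17 of 32 HES1-high cells against 13 of 69 and 19 of 86 HES1-zero cells. DLX2, a homeobox factor, reached 39.2 and 42.7 CPM from 1 and 5 UMIs in the HES1-zero sums (log2 ratio 4.46). DHRS2, a mitochondrial and nuclear reductase, had a log2 ratio of 3.97 and levels of 707 and 372 against 1.08 and 68.7, but 97.1% and 98.5% of its HES1-high UMIs came from 3 cells per plate. DHRS2 was not past the threshold with DESeq2 (adjusted p = 0.077) or after thinning to 10000 UMIs and regrouping (adjusted p = 0.057). The zinc-finger gene ZNF77 (3.62) and the ubiquitin ligase LNX1 (3.15) complete the 12 largest rises.

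For 9 of the 12 largest rises, 3 cells held at least as many of the HES1-high UMIs as all other cells together in both plates. In plate 10 the same cell, with 73624 UMIs and 15 of HES1, was the richest for 5 of the 12, and in plate 11 a cell with 53521 UMIs and 24 of HES1 led 8 of them. To see what remained beyond the richest cells, each sum was also made after leaving out, for each gene, the 10% of its cells with the most UMIs of that gene per 10,000. This alternative was added after the data were seen. Of 8279 genes then tested, 1168 were higher (14.1%) and 1040 lower (12.6%), 1047 and 914 of them with the same call as with all cells, and no call was reversed. Of the 12 largest rises, 11 were still called, with log2 ratios of 3.74 for EGR1 and 4.47 for BHLHE41 but 1.93 for MT1E and 1.02 for MT1X.

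Promoter sequences are shown for 6 genes that rose and have known regulators that bind short motifs, all but MT2A from the largest rises. Each is the 250 bases before the start of the RefSeq gene (GRCh38.p14), 5′ to 3′ on the strand of the gene, with matches to the motif in capitals; both strands were searched. In EGR1 (chr5:138465229-138465478, plus strand) the capitals are 2 matches to the CArG box, the element of serum response factor, which 1.16% of 35116 promoters of the same length hold. In BHLHE41 (chr12:26125038-26125287, minus strand) and PER1 (chr17:8152405-8152654, minus strand) they mark the E-box CACGTG, the element of the clock activators, held by 6.34%. In MT2A (chr16:56608334-56608583, plus strand) and MT1X (chr16:56682220-56682469, plus strand) they mark the cores of metal response elements, TGCACNC and TGCGCNC, at least 1 of which 24.8% hold. In VGF (chr7:101165570-101165819, minus strand) they mark the cAMP response element TGACGTCA, held by 1.65%, and an E-box.
EGR1: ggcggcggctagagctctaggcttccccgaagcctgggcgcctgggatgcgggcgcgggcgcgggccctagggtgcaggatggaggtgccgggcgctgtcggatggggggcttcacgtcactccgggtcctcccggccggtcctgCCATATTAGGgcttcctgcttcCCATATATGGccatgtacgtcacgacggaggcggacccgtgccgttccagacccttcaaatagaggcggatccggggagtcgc
BHLHE41: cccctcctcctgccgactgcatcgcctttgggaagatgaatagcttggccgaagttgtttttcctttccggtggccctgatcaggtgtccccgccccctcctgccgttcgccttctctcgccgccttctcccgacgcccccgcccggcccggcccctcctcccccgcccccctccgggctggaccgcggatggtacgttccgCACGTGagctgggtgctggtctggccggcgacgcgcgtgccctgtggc
PER1: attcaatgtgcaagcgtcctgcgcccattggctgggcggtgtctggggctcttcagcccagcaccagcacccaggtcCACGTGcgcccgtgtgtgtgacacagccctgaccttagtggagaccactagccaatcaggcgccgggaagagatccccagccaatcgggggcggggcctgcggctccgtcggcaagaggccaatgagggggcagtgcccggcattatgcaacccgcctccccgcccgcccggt
MT2A: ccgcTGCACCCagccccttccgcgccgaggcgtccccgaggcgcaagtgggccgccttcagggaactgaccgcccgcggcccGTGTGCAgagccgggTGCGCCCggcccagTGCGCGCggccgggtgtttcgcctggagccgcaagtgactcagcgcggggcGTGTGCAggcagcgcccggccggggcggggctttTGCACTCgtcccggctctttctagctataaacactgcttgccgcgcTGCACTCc
MT1X: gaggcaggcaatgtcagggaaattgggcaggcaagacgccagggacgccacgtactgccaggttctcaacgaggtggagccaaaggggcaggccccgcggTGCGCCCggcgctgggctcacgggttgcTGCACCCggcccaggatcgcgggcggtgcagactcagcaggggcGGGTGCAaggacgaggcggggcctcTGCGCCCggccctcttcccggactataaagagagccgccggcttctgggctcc
VGF: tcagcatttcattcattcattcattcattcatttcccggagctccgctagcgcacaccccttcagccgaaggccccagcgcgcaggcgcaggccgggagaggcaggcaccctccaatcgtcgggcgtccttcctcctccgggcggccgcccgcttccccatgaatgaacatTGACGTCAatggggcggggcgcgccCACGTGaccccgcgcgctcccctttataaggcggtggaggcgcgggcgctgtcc
MT2A holds 7 matches and MT1X holds 4, with no overlap between any of the matches shown. Among the tested genes of the lists described below, the E-box was in 6 of 23 promoters of 16 clock genes, the CArG box in 3 and the cAMP response element in 5 of 42 promoters of 32 immediate early genes, and the RBPJ motif TGGGAA in 2 of 7 promoters of Notch effectors, against 20.8% of all promoters. The matches describe the letters and were not tested for binding.

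Of the Notch effectors other than HES1 that were tested, most were higher. Of 17 genes, 8 passed the filter on low counts and 8 listed genes did not, and 6 of the 8 tested were higher in HES1-high cells, 1 was lower and 1 was not called, against 15.6% and 12.2% of all genes, with a median log2 ratio of 1.26 against -0.02 over all genes. With depth-matched HES1-zero cells 5 of 8 were higher and 0 lower, with DESeq2 3 and 0 of 6, and in the thinned fits 3 and 0 of 6 and 3 and 1 of 8. Without the filter on low counts 6 of 16 were higher and 1 lower. Next to BHLHE41, its paralog BHLHE40 (DEC1) rose, with 152 and 198 CPM against 46.8 and 38.2 (log2 ratio 1.89, adjusted p = 1.2e-16). NRARP, a feedback inhibitor that binds the Notch intracellular domain and is a direct Notch target, had 61.97 and 66.1 against 22.05 and 14.2 (log2 ratio 1.69, standard error 0.30, adjusted p = 8.2e-07). It was detected in 53.8% and 59.4% of HES1-high cells against 28.99% and 16.3% of HES1-zero cells. The cell cycle inhibitor CDKN1A (1.35), the repressor HES4 (1.16) and MYC (0.72) rose less, and HES4 was not past the threshold without the richest cells (adjusted p = 0.15). HES6, which antagonizes HES1, was lower at 89.8 and 99.2 against 134 and 146 (log2 ratio -0.70, adjusted p = 0.0029), but was not called with depth-matched cells, DESeq2 or cells thinned to 5000 UMIs. HES2 was not called at -0.67 (adjusted p = 0.28).

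The classical partners of HES1 were barely detected. HES5 had 1 UMI in each HES1-high sum and 5 and 9 UMIs in the HES1-zero sums, at 1.26 and 1.38 CPM against 2.69 and 4.91. HEY1, HEY2, HEYL, HES7, DTX1, DTX4 and NOTCH3 were also below the filter, and HES3 was not listed in the files. Their differences were not detectable at this depth. BHLHE41 and BHLHE40 are clock genes as well as relatives of HES1, and CDKN1A and MYC answer to many signals, so NRARP and HES4 are the members most specific to Notch.

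Few receptors and ligands could be tested. Of 12 genes, 5 were tested, with 0 higher, 1 lower and a median log2 ratio of -0.06. The count and median moved with the choice of cells: with the top 30% of cells as HES1-high, 1 of 7 was higher and 1 lower (median 0.73), with the top 10% 1 and 1 of 5 (median 0.03), and against all other cells 0 and 1 of 7 (median 0.38). The ligand JAG2 was lower, with 59.4 and 66.1 CPM against 90.3 and 112 (log2 ratio -0.82, adjusted p = 0.0024), but was not called with DESeq2 or in either thinned fit. The receptor NOTCH1 had 60.7 and 57.8 against 55.9 and 56.1 (log2 ratio -0.06, adjusted p = 0.89), a value whose sign turned in 6 alternatives. NOTCH2 was at 0.73 (adjusted p = 0.26), the ligand JAG1 at 0.80 (adjusted p = 0.16) and DLL3 at -0.22 (adjusted p = 0.76), none of them called. Among 27 tested genes of the Notch machinery, 5 were higher and 4 lower with a median of 0.05, close to the shares over all genes (15.6% and 12.2%), and DESeq2 and both thinned fits called 0 of them. The corepressor TLE4 was higher (log2 ratio 3.03, from 1 and 3 UMIs in the HES1-zero sums), as were the coactivator CREBBP (0.80) and the receptor-cleaving protease ADAM17 (0.63). The gamma-secretase subunit APH1A (-1.38) and the ligand-activating ubiquitin ligase MIB1 (-0.65) were lower.

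**Figure D3:**
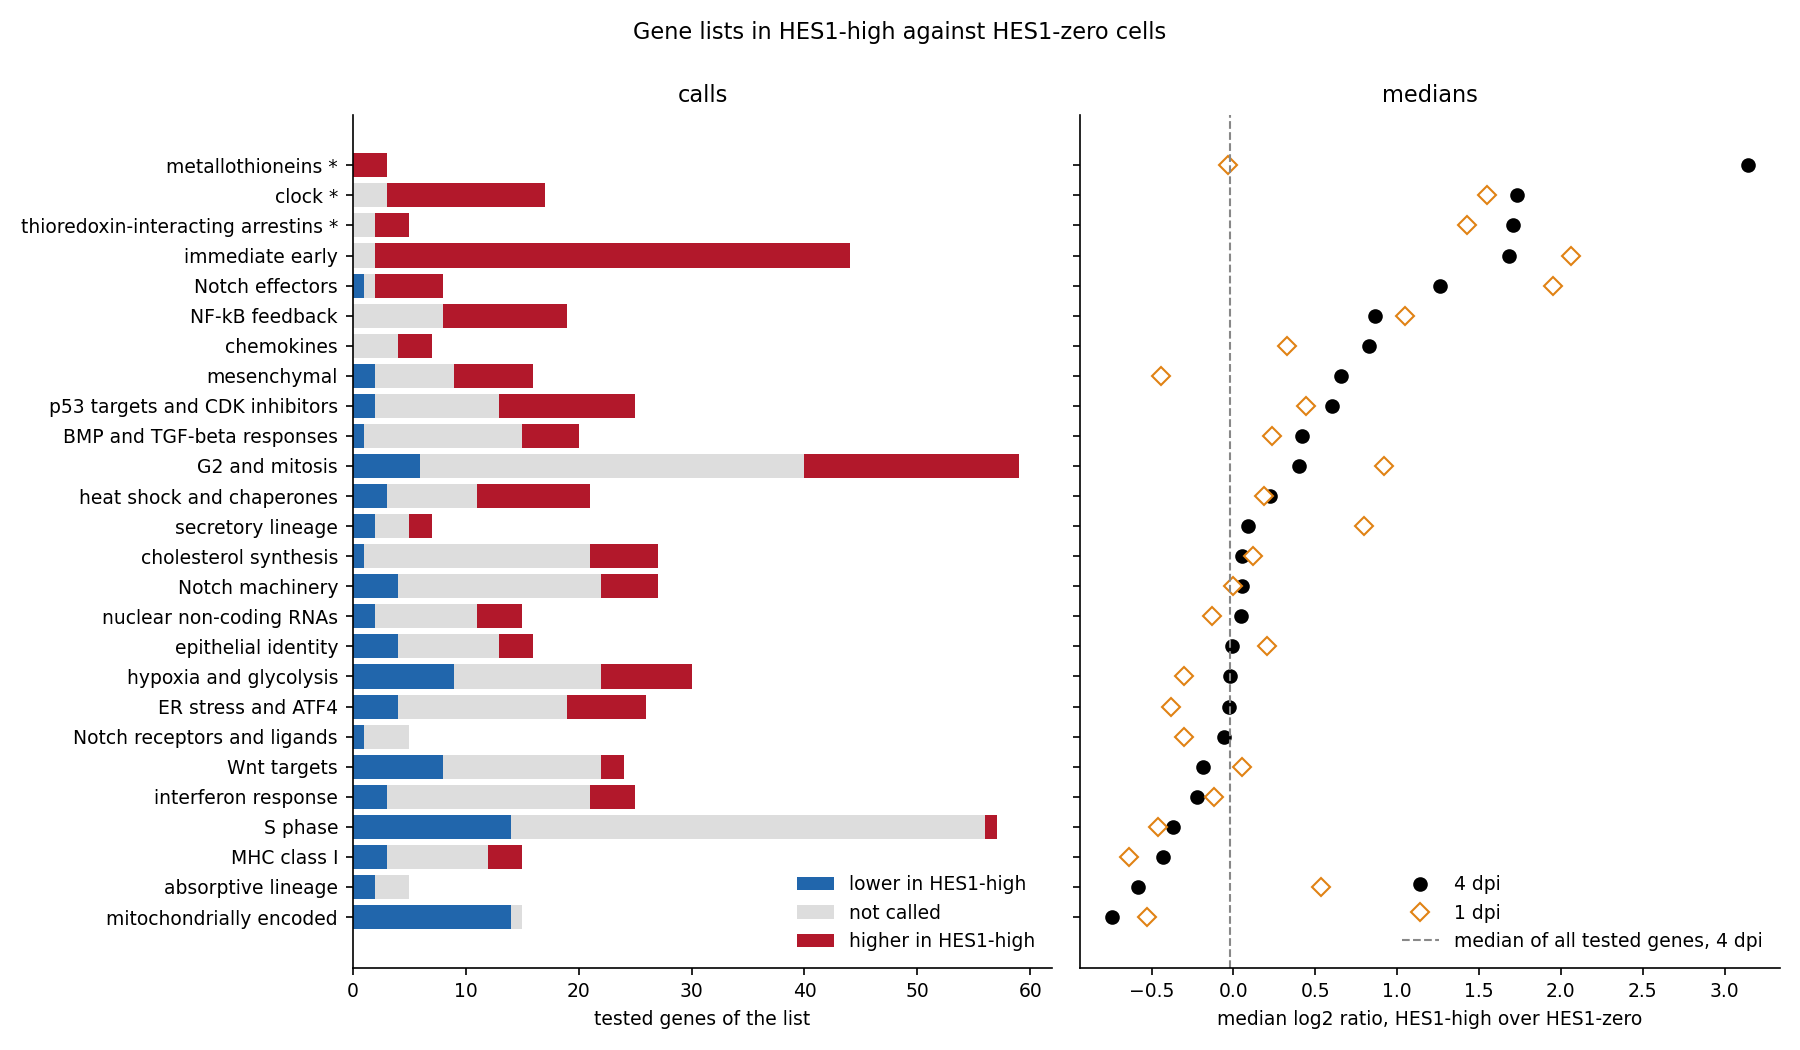
Left, tested genes of each list by call in HES1-high against HES1-zero cells at 4 dpi; right, the median log2 ratio of the tested genes at 4 dpi (filled) and 1 dpi (open), with the median of all tested genes at 4 dpi as a dashed line. Lists with an asterisk were chosen after values were seen; immediate early genes had 42 of 44 tested members higher, and mitochondrially encoded genes 14 of 15 lower.

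Most immediate early genes rose. Of 44 listed, all passed the filter, 42 were higher and 0 lower in HES1-high cells, against 15.6% of all genes higher, with a median log2 ratio of 1.68. The exceptions were the transcription factor SRF (log2 ratio 0.35, adjusted p = 0.33) and the phosphatase DUSP4 (0.29, adjusted p = 0.31). Summed over the list, HES1-high, middle and HES1-zero cells held 14161, 7350 and 4778 CPM in plate 10 and 17148, 6427 and 3984 in plate 11. The order was the same in both plates.

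The rise was broad within the program. AP-1 members rose, among them FOS (673 and 945 CPM against 169 and 126, log2 ratio 2.30), FOSB (1.71), JUNB (1.90) and JUN (1.51). So did the zinc-finger factors KLF10 (2.77), which TGF-beta induces, EGR3 (2.88) and EGR4 (2.75), the orphan receptors NR4A1 (2.48) and NR4A3 (3.06), the stress sensor GADD45B (254 and 263 against 24.7 and 37.1, log2 ratio 2.94) and IER2 (931 and 1614 against 185 and 227, log2 ratio 2.45). The matricellular protein genes CCN1 (listed as CYR61, log2 ratio 3.13) and CCN2 (CTGF, 2.77), targets of YAP and serum response factor, rose with them. Feedback inhibitors rose too, with DUSP1 at 1.85, DUSP5 at 2.19, DUSP6 at 1.77 and the RNA-destabilizing protein ZFP36 at 1.55. Without the richest 10% of cells for each gene, 40 of 42 were higher with a median of 2.12. Fewer were called with DESeq2 (26 of 37), with cells thinned to 5000 UMIs (29 of 35) and with cells thinned to 10000 UMIs and regrouped (29 of 40, median 1.27), and 0 were lower in each of these.

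Cell by cell, the groups overlapped. The summed immediate early level ran from 10.6 to 523 UMIs per 10,000 in HES1-high cells of plate 10 (median 109) and from 7.46 to 612 in HES1-zero cells (median 23.5). In plate 11 it ran from 21.6 to 374 (median 141) and from 7.57 to 500 (median 24.7). Middle cells lay between, with medians of 61.6 and 68.5. Some HES1-zero cells were thus as high as the highest HES1-high cells.

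**Figure D4:**
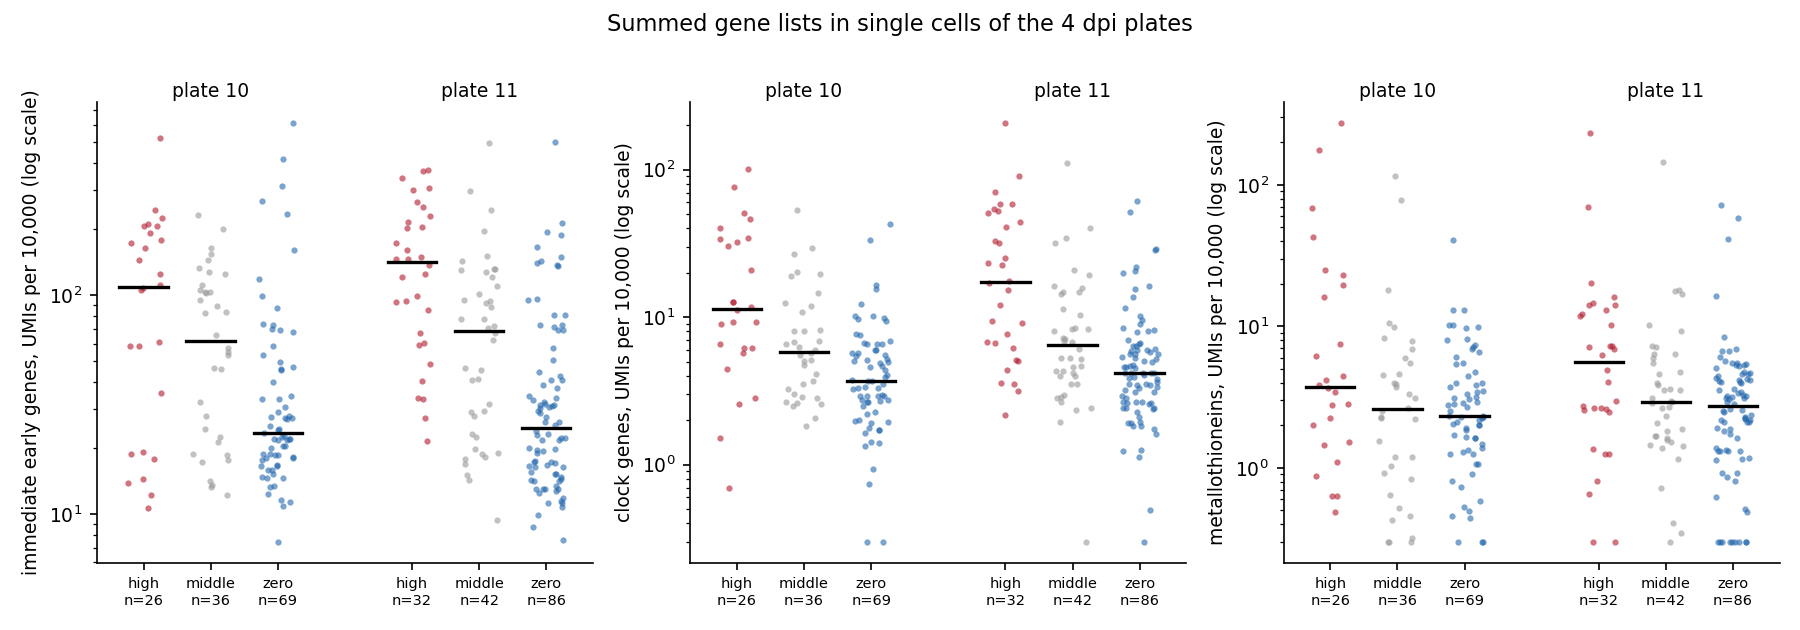
Each point is a cell of the 4 dpi plates and black lines are medians; the panels give the summed UMIs per 10,000 of immediate early genes, clock genes and metallothioneins on log scales, with cells at 0 drawn at the lower edge. Medians of the immediate early level fall from HES1-high (109 and 141) through middle (61.6 and 68.5) to HES1-zero cells (23.5 and 24.7), while metallothioneins differ mainly in a few very high cells.

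Clock genes formed a broad group of rises. The list of 21 genes was chosen after BHLHE41, NR1D1 and PER1 had been seen among the largest rises, so its counts describe breadth only. Of 17 tested, 14 were higher and 0 lower, against 15.6% and 12.2% of all genes, with a median log2 ratio of 1.73. DESeq2 called 8 of 10 higher, and the thinned fits 6 of 11 and 6 of 14. The output factors DBP (log2 ratio 2.95), TEF (2.09) and HLF (1.86), the repressors PER2 (1.73), PER3 (1.27), CRY1 (1.72) and NR1D2 (2.08), and the activator ARNTL (BMAL1, 1.67) rose together, as did NFIL3 (1.23) and RORA (1.21), which act on the same response elements as DBP and NR1D1 with opposite effects. ARNTL and its target NR1D1 peak at different times in a running clock. CLOCK (-0.07, adjusted p = 0.86), NPAS2 (-0.85, adjusted p = 0.25) and CSNK1D (0.35, adjusted p = 0.20) were not called, and the sign of CLOCK turned in 4 alternatives. The median clock level of a cell was 11.4 and 17.3 UMIs per 10,000 in HES1-high cells, 5.85 and 6.44 in middle cells and 3.68 and 4.18 in HES1-zero cells. This group was less concentrated than the metallothioneins, with 12 of 14 genes higher and a median of 2.21 without the richest cells.

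The metallothionein list was also chosen after values were seen. MT1E, MT1X and MT2A, the 3 of 11 members that were tested, were all higher, against 15.6% of all genes. MT2A was the most abundant, with 3212 and 1815 CPM in HES1-high, 938 and 415 in middle and 341 and 482 in HES1-zero cells (log2 ratio 2.43, standard error 0.12, adjusted p = 1.8e-85). Nearly every cell held MT2A, 96.2% and 96.9% of HES1-high against 94.2% and 88.4% of HES1-zero cells, but a single HES1-high cell per plate held 55.8% and 70.6% of it. Without the richest cells its log2 ratio was 0.95 (adjusted p = 6.1e-08). The median metallothionein level per cell was 3.75 and 5.62 UMIs per 10,000 in HES1-high and 2.34 and 2.72 in HES1-zero cells, with highest cells at 275 and 234 against 40.8 and 71.9.

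TXNIP, an arrestin-like protein that lowers glucose uptake and binds thioredoxin, rose with its relatives ARRDC4 and ARRDC3, a group likewise picked after values were seen. TXNIP had 1470 and 1829 CPM against 349 and 417 (log2 ratio 1.96, standard error 0.12, adjusted p = 2.6e-53). It was found in nearly all cells of both groups, 96.2% and 100% against 92.8% and 90.7%, so the change was in level rather than in detection. ARRDC4 (2.16) and ARRDC3 (1.71) rose by like amounts, and ARRDC1 (0.18, adjusted p = 0.79) and ARRDC2 (0.36, adjusted p = 0.62) were not called. The sign of each of the latter turned in 2 alternatives.

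Feedback genes of NF-kB rose in part. Of 19 tested, 11 were higher and 0 lower, against 15.6% and 12.2% of all genes, with a median log2 ratio of 0.87. TNFAIP3 (A20), a ubiquitin-editing inhibitor of the pathway, had 67.03 and 110.2 CPM against 12.4 and 10.9 (log2 ratio 2.75, adjusted p = 2.6e-17). The inhibitor NFKBIE (2.81), the subunits RELB (2.26) and NFKB2 (1.69), the antiapoptotic BIRC3 (2.24) and the nuclear cofactor NFKBIZ (1.48) rose with it, and the adaptor TNIP2 was not called at -0.51 (adjusted p = 0.33). Of 7 chemokines tested, 3 were higher and 0 lower (median 0.83), but this median turned with the choice of cells. The top 10% of cells as HES1-high gave 1 higher and 1 lower of 6 (median -0.78). Against all other cells 1 was higher and 0 lower of 9 (median -0.08). CXCL8 had 134 and 202 CPM against 54.3 and 44.7 (log2 ratio 1.604, adjusted p = 2.2e-12), with 91.5% and 90.5% of its HES1-high UMIs in 3 cells, and its sign turned to -1.52 when the top 10% of cells were taken as HES1-high. CXCL3 rose by 1.29. CCL20 was called at 0.91 but had 24.03 against 45.7 CPM in plate 10 and 101 against 13.1 in plate 11, so its plates went opposite ways. MIF was at -0.82 (adjusted p = 0.27).

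Among targets of BMP and TGF-beta signaling, 5 of 20 were higher and 1 lower, with a median of 0.42. On this TMM scale the rises were not far from the 15.6% of all genes (12.2% lower). With library size only, 10 of 20 were higher and 1 lower, beside 2063 higher and 797 lower of all 10045 genes. The genes below are given as examples, and no change of the list is claimed. ID2, an inhibitor of basic helix-loop-helix factors, had 484 and 573 CPM against 79.6 and 112 (log2 ratio 2.33, standard error 0.16, adjusted p = 1.3e-44). The TGF-beta feedback gene PMEPA1 (1.62) and SKIL (0.96) rose, ID1 rose less (0.61, adjusted p = 0.027), and the ligand BMP7 was lower (-0.87). Of 16 tested genes of the epithelial-mesenchymal list, which holds the epithelial cadherin CDH1, 7 were higher and 2 lower (median 0.66). Fewer were called with depth-matched HES1-zero cells (2 higher and 1 lower of 16) and with DESeq2 (1 and 0 of 10). The thinned fits called 2 and 0 of 9 and 2 and 0 of 14. Cells of at most 15% mitochondrial UMIs gave 3 and 3 of 16. The repressors SNAI2 (159 and 183 against 25.3 and 32.7, log2 ratio 2.42, adjusted p = 1.2e-23), SNAI1 (2.63) and ZEB1 (1.32) rose. CDH1, which they repress, was higher as well (0.72, adjusted p = 0.036), the protease receptor PLAUR was called at 0.80 but had 36.7 against 41.4 CPM in plate 10, COL4A2 was lower (-0.70), and CD44 was not called (-0.84, adjusted p = 0.056).

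Stress lists held changes in both directions, to be read beside 15.6% higher and 12.2% lower over all genes. Of 21 heat shock genes and chaperones, 10 were higher and 3 lower with a median of 0.22. Against all other cells 5 were higher and 3 lower of 21, and the fit thinned to 10000 UMIs and regrouped called 2 and 0 of 19. The cochaperone BAG3 had 84.7 and 103 CPM against 12.9 and 15.8 (log2 ratio 2.56, adjusted p = 5.2e-17), and HSPA1A (2.27), HSPA1B (2.07), HSPH1 (1.33), CHORDC1 (1.31) and DNAJB4 (1.19) rose, while the mitochondrial chaperonin HSPE1 was lower (-0.81). In plate 10, 3 cells held 100% of the HES1-high UMIs of HSPA1A, and in plate 11 middle cells had more of it than HES1-high cells (181 against 19.3). Of 26 genes of ER stress and the ATF4 response, 7 were higher and 4 lower with a median of -0.03. Among the higher genes were DDIT3 (CHOP) at 197 and 333 against 67.2 and 76.8 (log2 ratio 1.71, adjusted p = 2.5e-18), SESN2 at 1.25, the amino acid transporter subunit SLC3A2 at 1.00 and ATF4 at 0.98, and among the lower ones PDIA4 (-1.02) and SDF2L1 (-0.95), which act in protein folding in the ER. The balance of this ER stress list moved with the setting. With the top 30% of cells as HES1-high 11 were higher and 4 lower (median 0.21). Cells of at most 15% mitochondrial UMIs gave 4 and 6 (median -0.39). DESeq2 called 4 and 0 of 24, and the fit thinned to 10000 UMIs and regrouped 3 and 0 of 26. Of 25 p53 targets and CDK inhibitors, 12 were higher and 2 lower with a median of 0.60. Here DESeq2 called 5 and 1 of 17, and the fit thinned to 10000 UMIs and regrouped 3 and 0 of 21. CDKN2B, a TGF-beta-induced inhibitor of CDK4 and CDK6, had 51.9 and 72.99 against 11.8 and 16.9 (log2 ratio 1.97, adjusted p = 3.5e-08), CDKN2D (1.63) and SESN1 (1.17) rose, and FDXR was lower (-1.84).

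Metabolic lists also held calls in both directions, beside the same 15.6% and 12.2%. Of 30 hypoxia and glycolysis genes, 8 were higher and 9 lower, a median of -0.02. Among the rises were PFKFB3 (1.92), ADM (1.90), DDIT4 (1.59), KDM3A (1.495), NDRG1 (1.31) and P4HA1 (1.20), while the glycolytic enzymes GAPDH (-0.54), ENO1 (-0.45), LDHA (-0.56) and PGK1 (-0.54) were lower. GPI was lower at 239 and 230 CPM against 372 and 422 (log2 ratio -0.90, adjusted p = 1.3e-07). Of 27 genes of cholesterol synthesis, 6 were higher and 1 lower with a median of 0.05, among them HMGCS1 (1.36), IDI1 (1.26) and HSD17B7 (1.54), and FASN of fatty acid synthesis was lower (-0.82). In the hypoxia and glycolysis list DESeq2 called 2 higher and 3 lower of 22 and the fit thinned to 10000 UMIs and regrouped 1 and 1 of 28, and in the cholesterol list they called 0 of 13 and 0 of 22.

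Replication and mitotic genes both depended on the plate. Of 57 S-phase genes tested, 1 was higher and 14 lower, against 15.6% and 12.2% of all genes, with a median of -0.37 and 42 not called. Their summed level was 3878 CPM in HES1-high against 3785 in HES1-zero cells in plate 10 and 2695 against 3396 in plate 11. The calls varied with the setting. The top 10% of cells as HES1-high gave 2 higher and 20 lower of 57 (median -0.90), the top 30% gave 1 and 17 of 57, and leaving out the richest cells 1 and 15 of 48 (median -0.46). Depth-matched HES1-zero cells gave 2 and 4 of 49, cells of at most 15% mitochondrial UMIs 4 and 5 of 49 (median -0.17), and DESeq2 1 and 0 of 32. The primase subunit PRIM1 had 15.2 and 9.64 CPM against 46.2 and 27.3 (log2 ratio -1.69, adjusted p = 2e-04), with BLM (-1.35), POLD1 (-1.68), CHAF1B (-1.06) and GINS2 (-0.99) also lower, whereas GMNN, which blocks relicensing until mitosis ends, was higher (1.06). Of 59 G2 and mitosis genes, 19 were higher and 6 lower, beside the same 15.6% and 12.2%, with a median of 0.40. The sum of this list was 8839 CPM in HES1-high against 4505 in HES1-zero cells in plate 10, but 3278 against 3719 in plate 11. Middle cells held 3597 and 8249 and did not lie between the groups. The deepest HES1-high cell of plate 10 (113907 UMIs) also had the highest level, 352 UMIs per 10,000 against a HES1-high median of 29.3. That cell weighs heavily in the plate 10 sum. AURKA had 255 against 50.5 in plate 10, 95.05% of it in 3 cells, and 22.04 against 32.7 in plate 11, so its call (log2 ratio 1.25) rests on plate 10. HMMR (1.69), GAS2L3 (1.36), SMC4 (1.26) and KIF20B (1.19) were higher in both plates, and the survivin gene BIRC5 was lower (-1.35). The calls of this list moved in both directions: 6 were higher and 7 lower of 51 without the richest cells (median -0.03), 7 and 10 of 59 with the top 10% of cells (median -0.38), 0 and 2 of 54 thinned to 10000 UMIs and regrouped (median -0.10), and 31 and 1 of 57 with cells of at most 15% mitochondrial UMIs (median 1.03). Over all genes that last setting called 1292 higher and 989 lower of 9000.

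The largest falls were smaller than the largest rises. Of the 12 largest, 11 were still called without the richest cells. PRSS2, which encodes a trypsinogen, fell most, with 48.1 and 13.8 CPM in HES1-high, 226 and 133 in middle and 137 and 323 in HES1-zero cells (log2 ratio -2.89, standard error 0.23, adjusted p = 1.1e-33). Middle cells were thus not lower than HES1-zero cells in plate 10, and DESeq2 gave an adjusted p of 0.091. The mitochondrial threonine tRNA gene MT-TT (-2.06), the secreted glycoprotein NELL2 (-1.85), the neuroendocrine convertase inhibitor PCSK1N (-1.84), RAB15 (-1.77), LOC100507537 (-1.76), GPR155 (-1.74), the calmodulin regulator PCP4 (-1.72), the peptide trimmer ERAP1 (-1.71), DPYSL2 (-1.69), PRIM1 and LDHB followed. LDHB, the lactate dehydrogenase subunit, had 59.4 and 74.4 against 172 and 198 (log2 ratio -1.61, adjusted p = 2.4e-13).

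Most mitochondrially encoded genes were lower. Of 15 tested, 14 were lower and 0 higher, against 12.2% of all genes lower, with a median of -0.74. With DESeq2 and with cells thinned to 5000 UMIs 13 of 14 were lower, but with cells thinned to 10000 UMIs and regrouped 4 of 15 (median -0.70). MT-CO2 had 6901 and 6408 CPM against 10868 and 11519 (log2 ratio -0.89, standard error 0.09, adjusted p = 4.6e-22), and the summed list had 92791 and 90310 against 132434 and 138250. Middle cells lay between, at 106773 and 120646. The ribosomal MT-RNR1 moved least, at -0.28, and MT-ND6 was not called (-0.66). A lower share of these genes in HES1-high cells is the same measurement as the lower mitochondrial share of the cells given above.

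Except for the absorptive list, lineage and identity lists held calls in both directions. Of 24 Wnt targets tested, 2 were higher and 8 lower, against 15.6% and 12.2% of all genes, with a median of -0.19. Fewer falls were called with DESeq2 (0 higher and 3 lower of 16), with cells thinned to 5000 UMIs (1 and 2 of 16) and with cells thinned to 10000 UMIs and regrouped (1 and 0 of 21, median 0.14), and without the richest cells 4 were higher and 6 lower of 21 (median -0.0015). The feedback inhibitor NKD1 had 272 and 293 CPM against 439 and 561 (log2 ratio -0.95, adjusted p = 2.8e-09), APCDD1 (-1.01), DKK1 (-0.95), CDCA7 (-1.09) and LGR6 (-2.67) were lower, and EPHB3 was higher (0.93, adjusted p = 0.046). Of 7 tested secretory genes, 2 were higher and 2 lower with a median of 0.09, and 17 were below the filter. TFF3, a goblet cell peptide, had 63.2 and 56.5 against 117 and 117 (log2 ratio -1.10, adjusted p = 1.6e-05), PROX1 was lower (-0.62), and FOXA3 (2.68) and CHGB (1.68) were higher at under 34 CPM. Of 5 tested absorptive genes, 0 were higher and 2 lower with a median of -0.58, PHGR1 at 102 and 156 against 249.5 and 267 (log2 ratio -1.16, adjusted p = 1.5e-09) and VIL1 (-1.17), while CDX2 was not called (0.52, adjusted p = 0.38). With 7 and 5 members tested, neither list supports a statement about its lineage. Of 16 epithelial genes, 3 were higher and 4 lower with a median of -0.01. ELF3 (1.05) and CLDN4 (0.83) were higher, and KRT18 (-0.62), KRT8 (-0.57) and EPCAM (-0.43) were lower.

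Immune-facing lists held calls in both directions, beside 15.6% higher and 12.2% lower over all genes. Of 15 MHC class I genes, 3 were higher and 3 lower with a median of -0.43. HLA-E had 120.1 and 202 CPM against 40.3 and 81.8 (log2 ratio 1.28, adjusted p = 2e-08), HLA-B (0.91) and B2M (0.63) rose, and HLA-C (-0.40), CANX (-0.69) and ERAP1 were lower. Of 25 interferon-response genes tested, 4 were higher and 3 lower with a median of -0.22, IRF1 (0.94), MX2 (1.07), STAT2 (1.36) and OAS2 (1.90) against XAF1 (-0.88) and PARP14 (-1.28) among those named. Interferon calls were fewer against all other cells (1 higher and 1 lower of 32) and without the richest cells (1 and 1 of 12). DESeq2 called 0 of 5, and the fit thinned to 10000 UMIs and regrouped 0 of 12. Of 15 nuclear non-coding RNAs, 4 were higher and 2 lower (median 0.04). The rises were small nucleolar RNA host genes that also report growth and translation, SNHG12 (626 and 596 against 254 and 234, log2 ratio 1.19, adjusted p = 8.1e-15), SNHG15 (1.10), SNHG1 (0.98) and SNHG8 (0.69), while SNHG16 (-0.58) and KCNQ1OT1 (-0.52) were lower.

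At 1 dpi, the same grouping was made on plates the rule did not use. HES1 was then far more abundant, with 4769, 5674 and 3182 HES1 UMIs and a HES1 UMI in 70.0%, 93.7% and 64.8% of cells of plates 6, 7 and 8. Plate 7 had 9 HES1-zero cells and was left out because a sum needed 10, so 2 plates remained. Of 10030 genes, 2096 (20.9%) were higher and 1844 (18.4%) lower in HES1-high cells. Of 1479 genes higher at 4 dpi and tested at 1 dpi, 954 (64.5%) were also higher at 1 dpi and 19 were lower. The 954 are 48.3% of the genes higher at 1 dpi that were also tested at 4 dpi. Of 1208 lower at 4 dpi and tested at 1 dpi, 753 (62.3%) were lower at 1 dpi and 12 were higher. These 753 are 41.6% of the genes lower at 1 dpi that were also tested at 4 dpi. Immediate early genes (40 of 44 higher) and clock genes (14 of 17) rose at 1 dpi too, and mitochondrially encoded genes were lower (15 of 15).

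**Figure D5:**
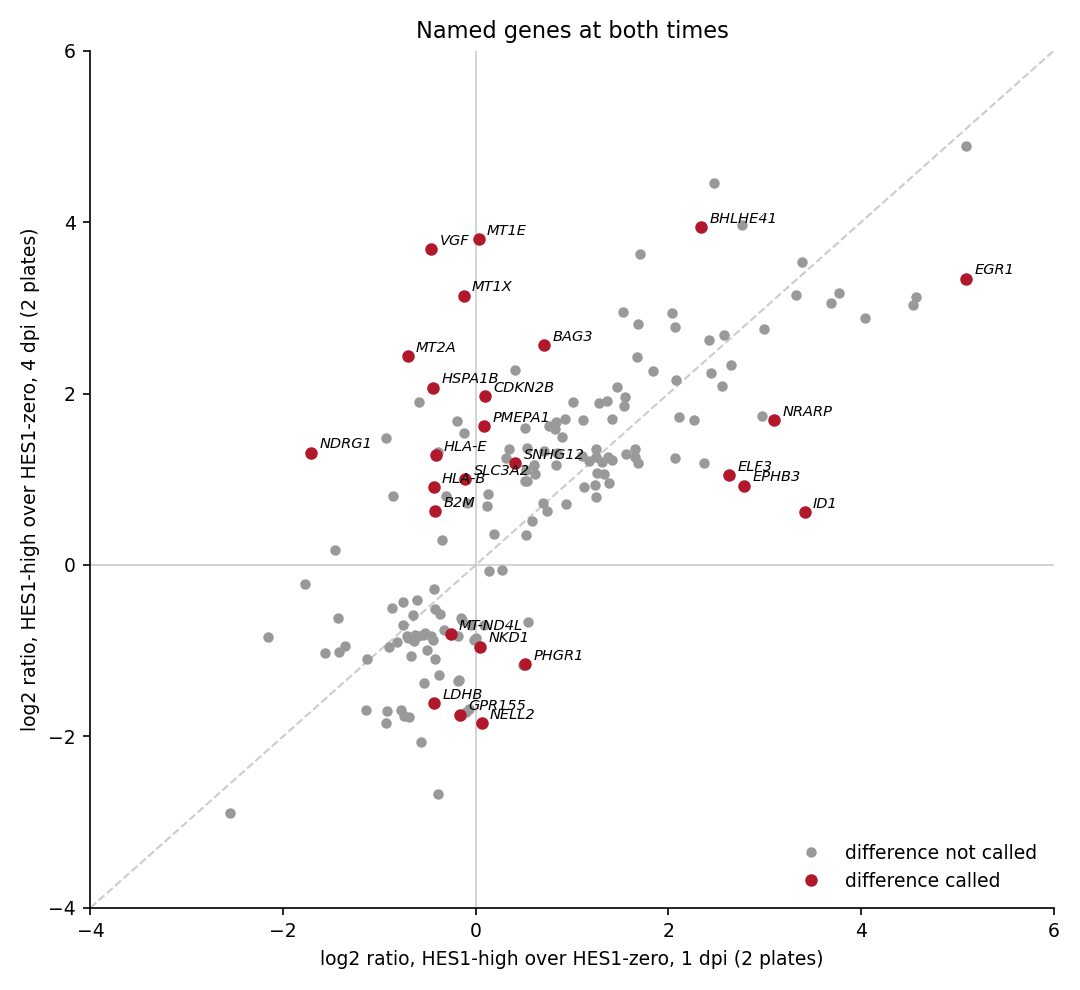
Each point is a gene named by the rule, or a tested member of the lists added after values were seen, with a log2 ratio of HES1-high over HES1-zero at both times (173 genes), at 1 dpi on the x axis and at 4 dpi on the y axis; red points are the 26 whose difference between times was called, and the dashed line marks equal ratios. VGF and the metallothioneins lie high at 4 dpi and near or below 0 at 1 dpi, and ID1, EPHB3, ELF3 and NRARP lie to the right of the line.

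The test of the difference between times called 249 of 10804 genes (2.3%), 149 with a higher ratio at 4 dpi and 100 with a lower one. Metallothioneins and VGF were of the first kind. At 1 dpi MT2A had 736 and 698 CPM in HES1-high cells of plates 6 and 8 against 772 and 1408 in HES1-zero cells (log2 ratio -0.71), and its ratio was higher at 4 dpi by 3.14 on the log2 scale (standard error 0.29, adjusted p = 1.5e-06). A single HES1-high cell per plate held much of the 4 dpi RNA behind the metallothionein differences (55.8% and 70.6% of the UMIs of MT2A). MT1E (difference 3.76, adjusted p = 6.8e-08), MT1X (3.27, adjusted p = 5.3e-04) and VGF (4.14, adjusted p = 7e-07) went the same way, as did BHLHE41, which rose at both times (log2 ratios of 2.34 and 3.94, difference 1.59, adjusted p = 0.009). Of 15 Notch effectors in this test, 3 differed, BHLHE41 upward and HES5 and NRARP downward. HES5 had 315 and 210 CPM in HES1-high cells at 1 dpi against 5.59 and 1.68 in HES1-zero cells, a log2 ratio of 5.90, and the counts of 1 and 1 UMI in HES1-high cells at 4 dpi gave a difference of -7.49 (adjusted p = 3e-05) whose size is imprecise. HES5 was below the filter of the 4 dpi fit and entered this test through its 1 dpi counts. Its ratio at 4 dpi could not be measured. NRARP had 175 and 186 against 15.6 and 22.7 at 1 dpi, a log2 ratio of 3.10 that fell to 1.69 at 4 dpi (difference -1.42, adjusted p = 0.044). ID1, at 1018 and 570 against 68.7 and 62.1 at 1 dpi, had the difference -2.81 (adjusted p = 7e-07), and EGR1 -1.76 (adjusted p = 5.2e-05). Of the 44 immediate early genes, 9 differed, against 2.3% of all genes, among them FOS (-1.56), IER2 (-1.14) and NR4A1 (-3.23) with lower and FOSL1 (1.07) with higher ratios at 4 dpi. HES1-high cells of 4 dpi thus shared the direction of most immediate early and clock rises with those of 1 dpi, while the ratios of NRARP, ID1 and several immediate early genes were lower at 4 dpi and those of the metallothioneins and VGF higher.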

How the data were processed

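Single SW480 cells were measured by SORT-seq on 5 plates, 3 at 1 dpi and 2 at 4 dpi. The authors took well barcode and UMI from read 1, aligned read 2 with BWA (version not given) to the human transcriptome (hg38), and deposited UMI counts for every well, not normalized. Human UMIs numbered 4678213 and 4487175 in plates 10 and 11 and between 4922188 and 7632951 at 1 dpi; ERCC spike-ins (1.77% and 3.57% at 4 dpi) were left out of totals. Plates were the replicates and wells were not. By the run codes of the deposited data, which the sample labels do not give, each flow cell held plates of both times.

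UMI sums per plate and HES1 group of at least 10 cells were tested with edgeR 4.0.16 in R 4.3.3 (filterByExpr, TMM, plate as a block, glmQLFTest, two-sided, Benjamini-Hochberg adjustment over all genes tested, threshold 0.05). HES1 was left out of the results because it chose the cells. The 4 sums leave 1 residual degree of freedom per gene, and the fitted prior degrees of freedom were infinite, so the spread is pooled over genes. The interaction of group and time was tested in the same way. CPM values are UMI sums scaled by the total of each sum. DESeq2 1.42.0, limma 3.58.1, other cell groups, depths, filters, scalings and the gene set of the authors' code were alternatives. The test was also run on simulated sums in which all genes shared the same dispersion and no single cells were drawn. That setting lacks the few cells that lead many real sums, so it does not show how the test behaves for such genes.

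Named genes are the 12 largest rises and 12 largest falls among called genes with the same sign in both plates and a mean of at least 20 CPM, tested Notch effectors, receptors and ligands, and up to 6 called members and the extremes of each other list. Other members of lists are named as examples chosen after values were seen. The 24 lists came from general knowledge, and 3 more were added after values were seen. Of 742 entries, 706 were listed in the files, 3 of them under an older symbol. Members and lists were chosen with earlier results of these data known. MSigDB sets were not used.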

Additional observations from a re-analysis of the deposited data

Results flagged for a closer look

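Genes are given here because the ratio of HES1-high to HES1-zero cells differed between 4 and 1 dpi by the edgeR quasi-likelihood test of the interaction (Benjamini-Hochberg adjustment); this held for 249 of 10804 genes. Values are the log2 ratio at 4 dpi minus that at 1 dpi, and each comes from 2 plates per time. Only some of the 249 are listed, and others, among them NR4A1, FOS, IER2 and FOSL1, are given above. Higher at 4 dpi were VGF (4.14), MT1E (3.76), MT1X (3.27), MT2A (3.14), NDRG1 (3.02), HSPA1B (2.52), CDKN2B (1.87), BAG3 (1.85), HLA-E (1.70), BHLHE41 (1.59), PMEPA1 (1.54), HLA-B (1.34), SLC3A2 (1.11), B2M (1.05) and SNHG12 (0.77). Lower at 4 dpi were HES5 (-7.49), ID1 (-2.81), NELL2 (-1.91), EPHB3 (-1.87), EGR1 (-1.76), PHGR1 (-1.67), GPR155 (-1.59), ELF3 (-1.58), NRARP (-1.42), LDHB (-1.18), NKD1 (-1.01) and MT-ND4L (-0.55). The HES5 value rests on its 1 dpi counts, because HES5 was below the filter at 4 dpi. The 4 dpi metallothionein values rest largely on 1 HES1-high cell per plate (55.8% and 70.6% of the UMIs of MT2A). HES1-high cells were chosen within each plate, and at 1 dpi they held far more HES1, so equal ranks are not equal HES1 levels; the part of this in the differences was not tested.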

How the results depend on the processing

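The 2796 calls at 4 dpi (1568 higher and 1228 lower) fell to 1586 (930 and 656) against all other cells, 694 (425 and 269) with cells thinned to 5000 UMIs, 316 (235 and 81) with cells thinned to 10000 UMIs and regrouped, and 509 (325 and 184) with DESeq2. Calls also fell with depth-matched HES1-zero cells (1127 higher and 782 lower) and without the plate block (1163 and 749), while library size only raised the higher calls to 2063 and lowered the lower ones to 797. Fewer than the 10045 genes were tested in the thinned fits (4901 and 7661), with DESeq2 (5371) and with depth-matched cells (8714), and the cause of the other changes was not tested. With the top 10% of cells as HES1-high, 1332 were higher and 956 lower of 9618. The top 30% gave 1784 and 1541 of 10443, and cells of at most 15% mitochondrial UMIs 1292 and 989 of 9000. The 3940 calls at 1 dpi became 1950 without a filter on low counts, 1186 with DESeq2 and 843 with thinned cells, and leaving out a plate there left 1 plate and no test. The 249 differences between times became 429 without a filter, 54 with DESeq2, 52 with thinned cells, and between 159 and 410 when a plate was left out, the remaining plate of a time being assumed to vary like the others.

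Of 173 named and added genes, 158 were called, and 50 of these kept direction and call in each of 19 alternatives in which they were tested. Signs turned for AURKA (-0.30 with the top 10% of cells, -0.034 without the richest cells, and from -0.71 to 2.21 when a plate was left out), CCL20 (-0.89 with the top 10%, and from -1.04 to 2.75 when a plate was left out), CXCL8 (-1.52 with the top 10%), PLAUR (from -0.30 to 1.72 when a plate was left out) and CD44 (0.64 thinned to 10000 UMIs). Uncalled genes near 0 turned as well: ARRDC1 (-0.19 with the top 10%, -0.043 without cells of under 3 HES1 UMIs), ARRDC2 (-0.078 with the top 10%, -0.048 depth-matched), CLOCK (0.028 and 0.093 in the thinned fits, 0.070 with library size only, 0.0050 without the leading cells) and NOTCH1 (0.026 with the top 10%, 0.080 against all other cells, 0.090 and 0.084 thinned, 0.086 with library size only, 0.063 without the leading cells). Of the named values, 10 moved without replicate 10 and 11 without replicate 11 by more than the spread between the plates, most by little because their plates were close, and DHRS2 most (from 2.28 to 8.81).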
